A study of Mus musculus with 52 samples.

Results

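The genes described here encode enzymes of cholesterol and fatty acid synthesis, the proteins that control their transcription and 2 sterol exporters. There were 31 members, chosen by gene symbol, and all 31 were found among the 23135 gene lines of the mouse table. They fall into 7 genes of the mevalonate steps, 11 of the steps from squalene synthesis to cholesterol, 5 of the control by sterol regulatory element-binding proteins (SREBPs), 2 of efflux and 6 of fatty acid synthesis. The members together took between 0.0872% and 0.204% of the counts of a library.

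Cholesterol and the fatty acids of membranes are both built from acetyl-CoA. The mevalonate steps join acetyl-CoA units into isoprenoids, the next steps fold and trim squalene into cholesterol, and fatty acid synthase and its partners build and desaturate acyl chains. SREBP precursors are held in the endoplasmic reticulum by Insig proteins when sterols are plentiful and are escorted to the Golgi by Scap when they are scarce, after which the released fragment drives most of these genes. In dendritic cells and macrophages this pathway is known to be remodelled when pattern recognition receptors are engaged.

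The cells were CD103+ type 1 conventional dendritic cells (cDC1), grown from C57BL/6 bone marrow with GM-CSF and FLT3 ligand and sorted, and the RNA of each bulk sample was read from the 3' end with unique molecular identifiers (UMIs). There were 52 libraries in 13 groups of 4, labelled as biological replicates A to D. At 4 h the groups were PGE2 at 100 ng/ml after a 30 min exposure to an antagonist at 5 uM of its receptor EP1 (SC-19220), EP2 (PF-04418948), EP3 (L-826,266), EP4 (L161,982) or EP2 and EP4 together, PGE2 alone, medium conditioned by PGE2-producing BRAFV600E melanoma cells (control CM), medium of BRAFV600E melanoma cells lacking Ptgs1 and Ptgs2, the cyclooxygenase genes needed for PGE2 (Ptgs1/Ptgs2-/- CM), and untreated cells. At 24 h the groups were PGE2 with the TLR3 ligand poly I:C at 10 ug/ml for the last 4 h, poly I:C alone for the last 4 h, PGE2 alone and untreated cells. All groups shared the growth factors and the sort. The titles name the combined group EP2 and EP4, but its treatment label names SC-19220, given elsewhere for EP1, beside L161,982. The agent that met EP2 in that group therefore cannot be told from the labels. The labels do not say whether the 4 replicates came from separate animals or cultures, so each p-value covers the variation among these libraries, part or all of which may be technical.

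Library totals ran between 42666 and 438491 UMI counts with a median of 295484.5, and the shallowest were EP4 antagonist A (42666), untreated A at 4 h (54107) and EP1 antagonist A (110698). All 10 cDC1 markers had counts in every group. Their summed level had a median of 4245 CPM (counts per 1e+06 counts of the library, scaled by TMM) in PGE2-treated cells and 7837 CPM in untreated cells at 4 h, and of 3323 CPM in poly I:C-treated cells and 5669 CPM in untreated cells at 24 h. It was 5524 CPM in control CM and 7958 CPM in Ptgs1/Ptgs2-/- CM. The part of these marker differences in the results below was not tested. Of 8 macrophage and monocyte markers 7 were in the table; at 4 h their summed level lay between 973 and 1239 CPM with PGE2 (Adgre1 and Mertk at 0) and between 932 and 1536 CPM in untreated cells (Mertk at 0). Of 6 melanoma markers 3 were in the table. Mitf, Pmel and Dct were all at 0 in control CM and in Ptgs1/Ptgs2-/- CM, Dct was at 0 in every group, and the summed level of the 3 was at most 8.58 CPM in any library. In bulk samples, fewer cells of a type and less RNA per cell cannot be told apart.

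The promoters of 25 of the 31 members were found in RefSeq's GRCm38.p6 table, as 33 windows from 250 bases before to 50 bases after a start site. The sequences of the 250 bases before the start are shown for the mevalonate genes Pmvk and Hmgcs1, which rose the most among enzymes with poly I:C, and for Fasn, which fell. They cover chr3:89454291-89454540 (plus strand) for the first Pmvk start, chr13:119690101-119690350 (plus strand) for Hmgcs1 and chr11:120824548-120824797 (minus strand) for Fasn. Capitals mark matches on either strand to TCACNCCAC (a sterol regulatory element) or CCAAT (the NF-Y box).
Pmvk: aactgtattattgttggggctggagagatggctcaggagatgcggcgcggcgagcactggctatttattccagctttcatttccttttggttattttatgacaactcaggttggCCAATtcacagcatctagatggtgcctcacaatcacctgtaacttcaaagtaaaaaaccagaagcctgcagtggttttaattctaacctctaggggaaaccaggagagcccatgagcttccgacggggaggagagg
Hmgcs1: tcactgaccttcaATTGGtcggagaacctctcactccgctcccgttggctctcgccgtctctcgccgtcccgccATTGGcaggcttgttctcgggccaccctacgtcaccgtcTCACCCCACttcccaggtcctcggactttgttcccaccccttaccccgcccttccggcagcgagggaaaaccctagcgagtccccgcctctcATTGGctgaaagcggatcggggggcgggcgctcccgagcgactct
Fasn: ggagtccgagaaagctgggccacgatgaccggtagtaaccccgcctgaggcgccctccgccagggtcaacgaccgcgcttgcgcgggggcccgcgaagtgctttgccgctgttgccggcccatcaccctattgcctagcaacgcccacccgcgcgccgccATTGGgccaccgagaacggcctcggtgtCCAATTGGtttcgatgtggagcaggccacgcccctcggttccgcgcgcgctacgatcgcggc
Hmgcs1 held the only match to TCACNCCAC among the 33 member windows, 137 bases before its start, against 1.24% of 32851 promoters. CCAAT was in 21 of the 33 windows, or 63.6%, against 37.4% of all promoters, and in at least 1 window of 20 of the 25 genes. The E-box CACGTG was in 7 windows (21.2%) against 7.15% of all promoters, and the cAMP response element TGACGTCA in 0 windows against 1.79%. GAAANNGAA, bound by interferon regulatory factors and searched after results were known, was in 1 window, that of Ebp, against 8.56%. A match is a description of letters in this window, and the windows of 1 gene can overlap.

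Of the 31 members, 18 passed the filter on low counts at 4 h and 16 at 24 h, and 13 passed at neither time. The 13 were Acat2, Mvk, Idi1, Lss, Tm7sf2, Nsdhl, Hsd17b7, Dhcr7, Insig2, Abca1, Acaca, Elovl6 and Scd1. Abca1, which exports cholesterol to apolipoprotein A-I, had 1 count and the desaturase gene Scd1 had 8 counts in all 52 libraries, whereas their relatives Abcg1 and Scd2 had 556 and 638 counts. Mvd and Insig1 were tested at 4 h but not at 24 h. At the median depth, 3 counts were 10.2 CPM, which is the level that a count of 0 allows, covering counting error only.

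With PGE2 at 4 h, 2 members fell and none rose, both in the mevalonate steps. Fdps, the farnesyl diphosphate synthase that makes the branch point between sterols and protein prenylation, had 66.9, 20.5, 21.9 and 30.2 CPM in the 4 PGE2 libraries, against 32.7, 105, 125 and 100.1 CPM in the 4 untreated libraries. Untreated A lay among the PGE2 libraries and the other untreated libraries lay above them all, so that the groups overlapped. In untreated A, 1 count was worth 18.5 CPM before TMM scaling. Fdps shares 1124 bases with Gm43738 on the same strand, a gene not analysed here. Fdps was 3.11-fold lower with PGE2 (log2 fold change -1.64 ± 0.33 SE, adjusted p = 5.71e-05, edgeR's quasi-likelihood test with Benjamini-Hochberg adjustment, used for every adjusted p here), and its log2 fold change was -1.74 without untreated A. Pmvk, the phosphomevalonate kinase, had 134, 90.0, 131 and 157 CPM with PGE2 and 229, 177, 197 and 229 CPM in untreated cells, without overlap. It was 1.63-fold lower with PGE2 (log2 fold change -0.70 ± 0.21 SE, adjusted p = 0.0158), a call that ended without PGE2 B (adjusted p = 0.143), without untreated D (0.10) or with no filter on low counts (0.0618).

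The 2 calls among 18 tested members stand against 8.57% of all 5754 genes called in that comparison, 5.21% higher and 3.35% lower. The median log2 fold change of the members was -0.11, against -0.01 over all genes. Scaling by library totals alone moved the median of all genes to -0.13, and the same 2 members were called lower. No gene of the squalene steps, of SREBP control or of fatty acid synthesis was called. Hmgcs1, the HMG-CoA synthase that starts the mevalonate steps, had 77.1, 53.2, 53.2 and 96.7 CPM with PGE2 and 49.1, 32.6, 43.7 and 40.0 CPM in untreated cells. Those ranges did not overlap, but the adjusted p did not pass 0.05. How many of all genes have ranges apart was not counted, for this or any other comparison. Abcg1, which exports cholesterol to lipoproteins, had 51.4, 49.1, 40.7 and 54.4 CPM with PGE2 and 16.4, 28.9, 21.9 and 17.2 CPM in untreated cells. These ranges were also apart, at a log2 fold change of 1.12 ± 0.45 SE (adjusted p = 0.112).

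**Figure D1:**
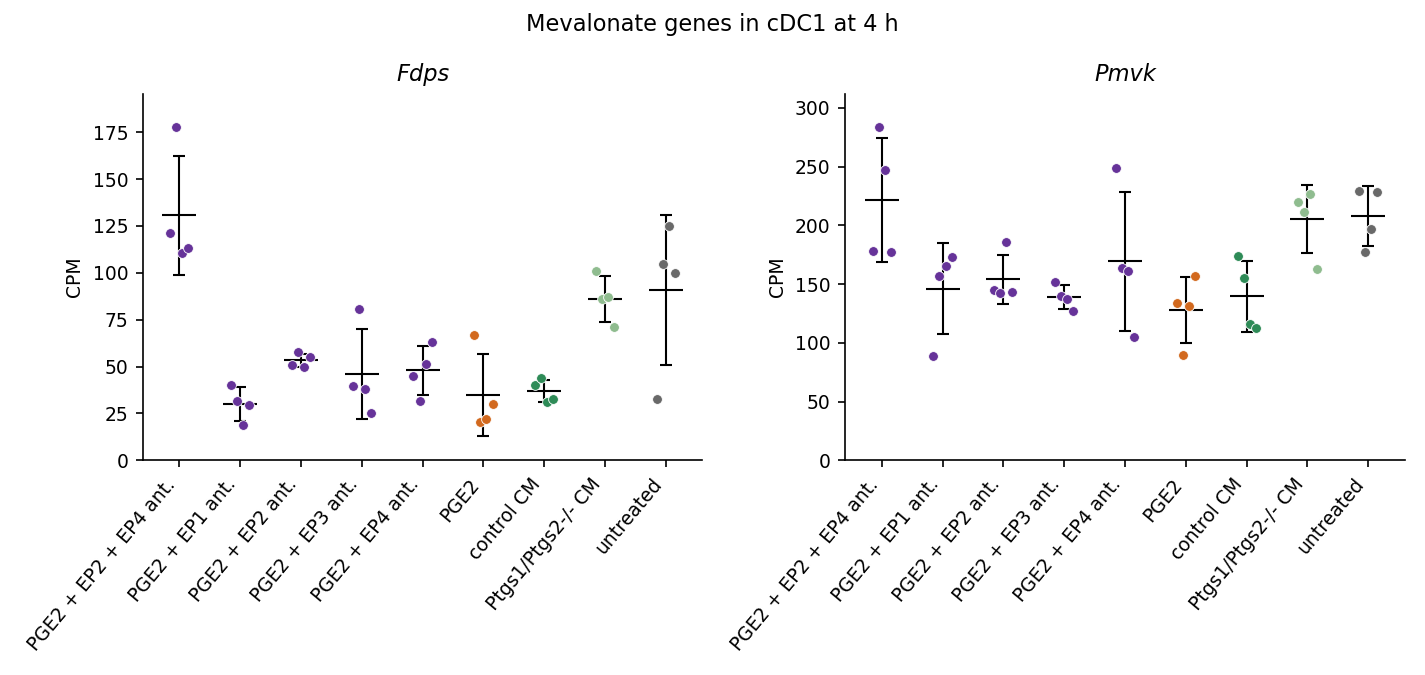
Level in CPM of Fdps and Pmvk in each library of the 9 groups at 4 h; points are libraries, the long bar is the mean and the whiskers are 1 SD (n = 4 per group). Fdps lies between 111 and 178 CPM with PGE2 and the antagonists of EP2 and EP4, against 20.5 to 66.9 CPM with PGE2 alone.

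Medium of PGE2-producing melanoma cells was compared with medium of melanoma cells that lack both cyclooxygenases, and Fdps fell here too. This comparison does not separate PGE2 from other differences between the media. Fdps had 40.1, 43.9, 31.2 and 32.5 CPM in control CM and 101, 85.8, 87.1 and 70.9 CPM in Ptgs1/Ptgs2-/- CM, with no overlap. The control CM libraries lay 2.34-fold lower (log2 fold change -1.23 ± 0.31 SE, adjusted p = 0.00627). Fasn, the fatty acid synthase, had 103, 39.9, 62.5 and 59.2 CPM in control CM and 144, 99.0, 118 and 117 CPM in Ptgs1/Ptgs2-/- CM. Control CM A reached into the range of the other medium. The log2 fold change of Fasn was -0.88 ± 0.27 SE (adjusted p = 0.035), and this call was lost under 8 of 14 alternatives. Those were DESeq2 (adjusted p = 0.0827), no filter on low counts (0.0794) and the removal of control CM B, C or D or of Ptgs1/Ptgs2-/- CM A, C or D (0.0684 to 0.219). Pmvk averaged 139 ± 30.1 CPM in control CM and 205 ± 28.8 CPM in Ptgs1/Ptgs2-/- CM (SD, n = 4 each), at an adjusted p of 0.0832. With library totals alone as scaling Pmvk was also called lower, making 3 members. The 2 calls of 18 compare with 3.95% of all genes, 2.43% higher and 1.51% lower, and the median of the members was -0.18, against -0.01 over all genes.

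Against untreated cells, control CM lowered Fdps and raised Scd2. Fdps was 2.78-fold lower in control CM (log2 fold change -1.48 ± 0.31 SE, adjusted p = 0.000195), with only untreated A inside the range of the control CM libraries. Scd2, a stearoyl-CoA desaturase that places the double bond in oleate, had 98.1, 39.9, 80.4 and 97.6 CPM in control CM and 16.4, 36.2, 43.7 and 31.5 CPM in untreated cells. Control CM B fell within the untreated range, and the other 3 control CM libraries lay above it. Scd2 was 2.22-fold higher in control CM (log2 fold change 1.15 ± 0.34 SE, adjusted p = 0.0145). This call was lost with no filter on low counts and without control CM A, control CM D or untreated D, with adjusted p between 0.0585 and 0.0965. These 2 of 18 members compare with 7.56% of all genes called, 4.81% higher and 2.75% lower, and the members' median was -0.13, against 0.00 over all genes. Pmvk was again a further member called lower with library totals alone, and also with only the groups compared and without control CM A. Ptgs1/Ptgs2-/- CM against untreated cells called 0 of 18 members, with 0 members at an unadjusted p under 0.05 and 0 by DESeq2, where 0.0869% of all genes were called. The log2 fold change of Fdps was then -0.25 with a 95% interval of -0.77 to 0.27. The control CM, Ptgs1/Ptgs2-/- CM and PGE2 comparisons with untreated cells share the 4 untreated libraries.

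The antagonists asked which PGE2 receptor carries each change. With the combined EP2 and EP4 antagonists, Fdps and Pmvk rose relative to PGE2 alone, and Abcg1 and Hmgcs1 fell. Fdps had 121, 178, 111 and 113 CPM with the combined antagonists and 66.9, 20.5, 21.9 and 30.2 CPM with PGE2 alone, with every antagonist library above every PGE2 library. It was 3.91-fold higher (log2 fold change 1.97 ± 0.31 SE, adjusted p = 1.43e-07). Pmvk had 178, 284, 248 and 177 CPM with the combined antagonists and 134, 90.0, 131 and 157 CPM with PGE2 alone, again apart, and was 1.74-fold higher (log2 fold change 0.80 ± 0.20 SE, adjusted p = 0.00209). Abcg1 had 15.4, 25.0, 17.5 and 9.86 CPM with the combined antagonists and 51.4, 49.1, 40.7 and 54.4 CPM with PGE2 alone. All 4 antagonist libraries lay below the PGE2 libraries, 2.86-fold lower (log2 fold change -1.51 ± 0.43 SE, adjusted p = 0.00949). Hmgcs1 averaged 33.8 ± 10.2 CPM with the combined antagonists and 70.1 ± 21.0 CPM with PGE2 alone (SD, n = 4 each). Its log2 fold change of -1.01 ± 0.34 SE (adjusted p = 0.0401) lost the call under 8 of 14 alternatives. Those were DESeq2 (adjusted p = 0.0605), library totals alone (0.0636), no filter (0.149) and the removal of antagonist libraries A, C or D or of PGE2 A or D (0.0641 to 0.159).

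These 4 of 18 members compare with 9.52% of all genes called, 4.21% higher and 5.32% lower, and the members' median was 0.08, against 0.01 over all genes. Fdps, Pmvk and Abcg1 kept their calls under all 14 alternatives run. The cDC1 markers, with counts for 10 of 10, summed to between 6087 and 6412 CPM with the combined antagonists and between 4175 and 4943 CPM with PGE2 alone. Macrophage and monocyte markers (7 of 8 in the table, Adgre1 and Mertk at 0 in both groups) summed to between 1395 and 1791 CPM with the combined antagonists and between 973 and 1239 CPM with PGE2 alone. The part of either list in the members' changes was not tested. Against untreated cells the combined antagonists with PGE2 called 0 of 18 members, with 1 at an unadjusted p under 0.05 and 0 by DESeq2, where 0.799% of all genes were called. Fdps then differed by a log2 fold change of 0.33 with a 95% interval of -0.15 to 0.81, and Pmvk by 0.09 with an interval of -0.26 to 0.45. Both comparisons use the 4 libraries of the combined antagonists.

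No member was called with a single antagonist relative to PGE2 alone. Out of 18 members, edgeR called 0 with each, DESeq2 called 0 with each, and an unadjusted p under 0.05 was reached by 1 member with the EP1 antagonist, 2 with the EP2 antagonist, 2 with the EP3 antagonist and 3 with the EP4 antagonist. Of all genes, 0% were called with the EP1 antagonist, 0.417% with the EP2 antagonist, 0.0695% with the EP3 antagonist and 0.0348% with the EP4 antagonist. Fdps averaged 30.0 ± 8.86 CPM with the EP1 antagonist, 53.4 ± 3.53 CPM with the EP2 antagonist, 45.8 ± 24.0 CPM with the EP3 antagonist and 47.9 ± 13.0 CPM with the EP4 antagonist, against 34.9 ± 21.8 CPM with PGE2 alone (SD, n = 4 each). The EP2 antagonist libraries were the most alike, between 49.9 and 57.6 CPM. Relative to PGE2 alone, the 95% interval of the Fdps log2 fold change was -1.01 to 0.63 with the EP1 antagonist, 0.00 to 1.39 with the EP2 antagonist, -0.27 to 1.16 with the EP3 antagonist and -0.24 to 1.30 with the EP4 antagonist. The estimate with the combined antagonists was 1.97. The 5 comparisons share the PGE2 libraries, and their differences were not tested. Abcg1 averaged 22.4 ± 5.11 CPM with the EP2 antagonist and 48.9 ± 5.89 CPM with PGE2 alone (SD, n = 4 each), at a log2 fold change of -1.09 ± 0.42 SE (adjusted p = 0.326).

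**Figure D2:**
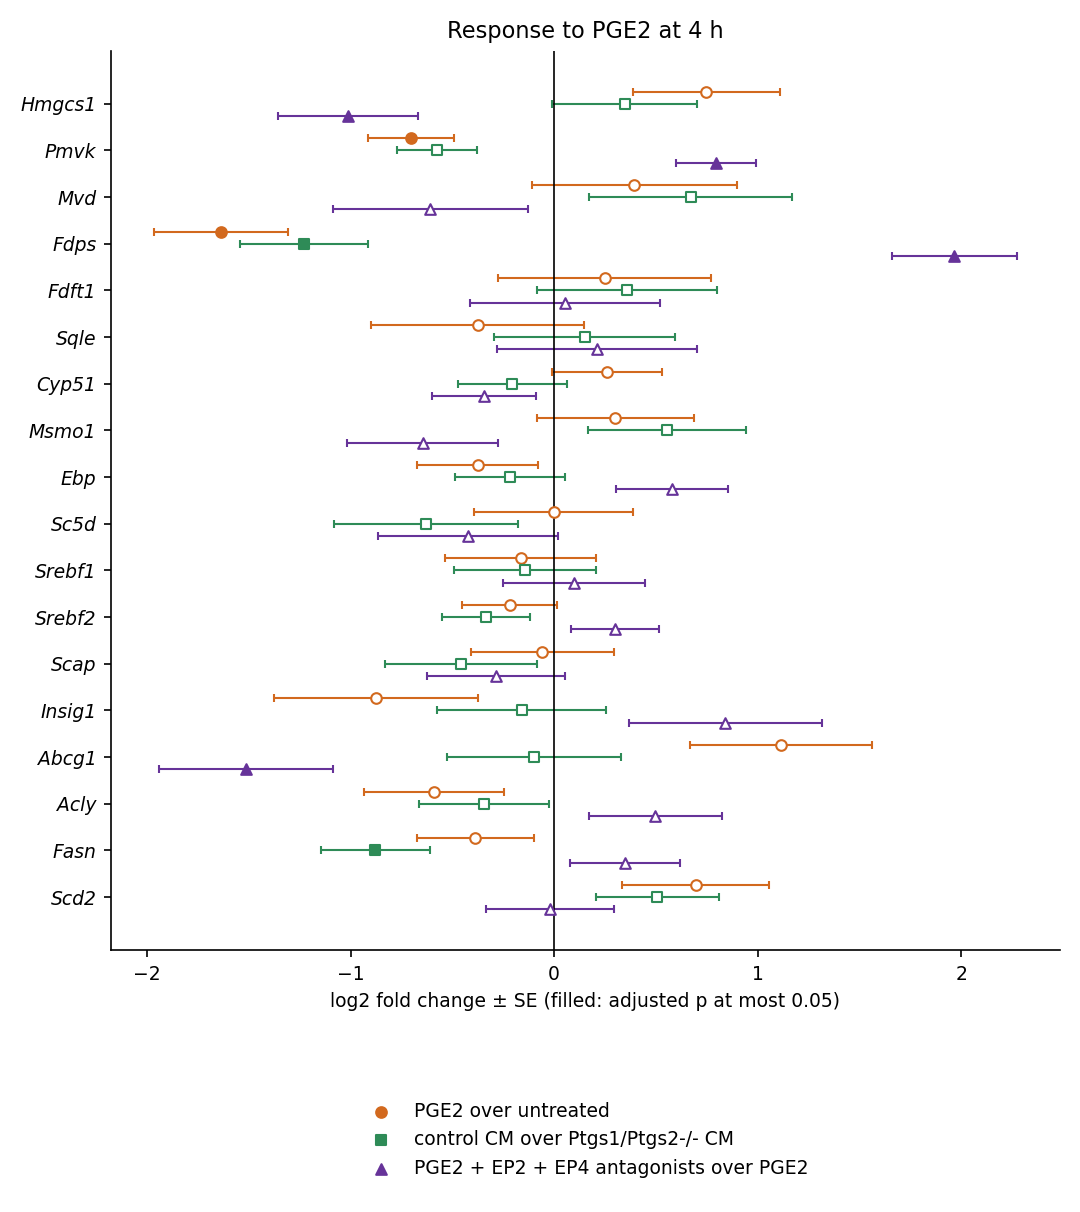
Log2 fold change with its SE for the 18 members tested at 4 h in 3 comparisons; filled symbols have an adjusted p of at most 0.05. Fdps lies at -1.64 for PGE2 over untreated, -1.23 for control CM over Ptgs1/Ptgs2-/- CM and 1.97 for PGE2 with EP2 and EP4 antagonists over PGE2; the first and the last share the PGE2 libraries.

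No control gene of the pathway was called at 4 h. Srebf1 and Srebf2, which encode the SREBP precursors, and Scap had adjusted p-values of 0.293 or more in the 10 comparisons. Srebf1 had 51.4, 20.5, 50.1 and 54.4 CPM with PGE2 and 81.8, 43.4, 46.8 and 45.8 CPM in untreated cells, and the groups overlapped. Srebf2 had 118, 115, 97.0 and 127 CPM with PGE2 and 180, 116, 119 and 140.1 CPM in untreated cells, also overlapping. With PGE2 against untreated cells, the log2 fold change was -0.16 (95% interval -0.89 to 0.57) for Srebf1 and -0.22 (-0.68 to 0.24) for Srebf2. Insig1, the sterol-sensitive retention protein and itself a known SREBP target, had 20.6, 8.19, 18.8 and 30.2 CPM with PGE2 and 16.4, 28.9, 40.6 and 37.2 CPM in untreated cells. The groups overlapped, and the log2 fold change was -0.87 ± 0.50 SE (adjusted p = 0.346). Sqle, the squalene epoxidase that commits squalene to sterols, had 36, 36.8, 31.3 and 84.6 CPM with PGE2 and 131, 54.3, 12.5 and 83.0 CPM in untreated cells. Its untreated libraries alone ran between 12.5 and 131 CPM, and no change was called.

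At 24 h no member was called with PGE2 alone. Out of 16 members edgeR called 0, DESeq2 called 0 and 1 had an unadjusted p under 0.05, where 7.97% of all genes were called. The members' median was 0.05, against 0.03 over all genes. The 1 member was Abcg1, with 28.9, 38.1, 36.9 and 37.6 CPM in PGE2-treated cells and 4.53, 19.1, 18.9 and 24.9 CPM in untreated cells. The ranges were apart, at a log2 fold change of 1.07 ± 0.38 SE (adjusted p = 0.0611). Fdps averaged 43.0 ± 3.29 CPM with PGE2 and 44.9 ± 12.0 CPM in untreated cells (SD, n = 4 each), which is -0.07 on the log2 scale with a 95% interval of -0.63 to 0.48.

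The PGE2 response of Fdps and Pmvk differed between the times. The effect at 24 h minus that at 4 h, tested in 1 fit of the 16 untreated and PGE2 libraries, was 1.55 ± 0.45 SE on the log2 scale for Fdps (adjusted p = 0.0242) and 0.86 ± 0.27 SE for Pmvk (adjusted p = 0.0462). These 2 of 17 members compare with 4.35% of all genes, 2.11% higher and 2.24% lower, and the members' median was 0.21, against 0.01. Fdps lost the call under 6 of 21 alternatives and Pmvk under 16 of 21, and DESeq2 called neither. Neither was called without PGE2 B or C at 4 h, untreated C at 4 h or untreated C at 24 h, with adjusted p for Fdps between 0.0708 and 0.102. The adjusted p of Pmvk was up to 0.182, without PGE2 B at 4 h. The untreated cells themselves called 0 of 17 members between 24 h and 4 h by edgeR and 0 by DESeq2, with 1 at an unadjusted p under 0.05, where 4.33% of all genes were called. That member was Fdps, with a log2 fold change of -0.84 ± 0.28 SE at 24 h relative to 4 h (adjusted p = 0.0594). With library totals alone Fdps was called lower at 24 h.

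Poly I:C split the members at 24 h. In otherwise untreated cells 8 members rose and 4 fell of 16 tested, in a comparison where 65% of all 5273 genes were called, 31.3% higher and 33.7% lower. All 3 mevalonate genes tested rose, as did 4 of 6 genes of the squalene steps and Abcg1, whereas Fasn, Scd2, Scap and Ebp fell. The median log2 fold change of the members was 0.56, against -0.10 over all genes. These directions are relative to TMM scaling, whose factors ran from 0.744 to 0.785 in poly I:C libraries and from 1.30 to 1.34 in untreated libraries. Scaling by library totals alone moved the median of all genes to -0.87 and gave 4 members higher and 8 lower, with Fdft1, Sqle, Msmo1 and Sc5d no longer called and Acly, Cyp51, Srebf1 and Srebf2 called lower.

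Pmvk had the largest rise among the members. It had 1063, 1368, 1324 and 1248 CPM with poly I:C and 122, 136, 120.5 and 125 CPM in untreated cells, 9.54-fold higher (log2 fold change 3.25 ± 0.13 SE, adjusted p = 3.74e-59). Hmgcs1 had 235, 246, 141 and 98.5 CPM with poly I:C and 29.5, 45.3, 30.7 and 49.9 CPM in untreated cells, and was 4.37-fold higher (log2 fold change 2.13 ± 0.25 SE, adjusted p = 2.82e-14). The lowest poly I:C library of each gene lay above the highest untreated library. Fdps had 122, 199, 133 and 172 CPM with poly I:C and 47.6, 59.6, 30.7 and 41.5 CPM in untreated cells, 3.32-fold higher (log2 fold change 1.73 ± 0.24 SE, adjusted p = 8.28e-11). These 3 genes kept the call and the direction under all 13 alternatives, library totals included.

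From squalene synthesis onward, 4 of 6 tested genes rose. Fdft1, the squalene synthase, had 51.7, 66.2, 79.9 and 54.7 CPM with poly I:C and 18.1, 14.3, 18.9 and 38.8 CPM in untreated cells (log2 fold change 1.45 ± 0.35 SE, adjusted p = 0.000163). The 3' end of Fdft1 overlaps Ctsb, a cathepsin gene on the opposite strand, by 774 bases. Ctsb itself was higher with poly I:C (log2 fold change 1.18 ± 0.20 SE), and since strand use in counting is not given, reads of the pair cannot be told apart. Sqle had 169, 147, 137 and 117 CPM with poly I:C and 63.5, 38.1, 87.4 and 66.5 CPM in untreated cells, 2.12-fold higher (log2 fold change 1.08 ± 0.23 SE, adjusted p = 1.22e-05). Msmo1, a methylsterol oxidase, had 51.7, 61.5, 68.5 and 62.0 CPM with poly I:C and 29.5, 11.9, 30.7 and 24.9 CPM in untreated cells, 2.40-fold higher (adjusted p = 0.00077). The groups were apart for all 3 genes.

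The later steps did not all follow. Sc5d, a sterol desaturase, averaged 56.3 ± 8.80 CPM with poly I:C and 30.2 ± 10.9 CPM in untreated cells (SD, n = 4 each; log2 fold change 0.83 ± 0.34 SE, adjusted p = 0.0256). It lost the call under 6 of 13 alternatives, namely DESeq2 (adjusted p = 0.0739), library totals alone (0.889), no filter (0.0691) and the removal of poly I:C B (0.0594), poly I:C C (0.0527) or untreated B (0.115). Ebp, a sterol isomerase, had 61.2, 9.46, 64.7 and 18.2 CPM with poly I:C and 70.3, 71.5, 68.5 and 85.9 CPM in untreated cells (log2 fold change -0.99 ± 0.32 SE, adjusted p = 0.0048). The poly I:C libraries themselves fell into 2 near the untreated range and 2 well below it, and the call was lost without poly I:C B (adjusted p = 0.0623) or D (0.0667). Cyp51, the lanosterol demethylase, averaged 105 ± 22.6 CPM with poly I:C and 93.2 ± 11.7 CPM in untreated cells (SD, n = 4 each) and was not called; its 3' end overlaps Akap9.

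Among the control genes, only Scap passed the test in otherwise untreated cells. Scap, the SREBP escort protein, had 0, 4.73, 3.8 and 0 CPM with poly I:C and 18.1, 31.0, 35.4 and 36 CPM in untreated cells, without overlap. That is 2 counts over the 4 poly I:C libraries and 49 over the untreated libraries, a ratio of 14.3-fold lower with an exact 95% interval of 3.76 to 121 for counting error only (adjusted p = 4.68e-06). Srebf1 had 28.2, 33.1, 15.2 and 51.1 CPM with poly I:C and 47.6, 23.8, 47.2 and 36 CPM in untreated cells. Srebf2 had 80.0, 142, 145 and 113 CPM with poly I:C and 97.5, 102, 94.5 and 80.3 CPM in untreated cells. Both genes overlapped between the groups, and neither was called with TMM scaling. Insig1 was under the filter at 24 h, with 47.0, 28.4, 30.4 and 10.9 CPM in poly I:C-treated cells and 20.4, 23.8, 21.3 and 19.4 CPM in untreated cells, overlapping.

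The exporter gene Abcg1 rose, and 2 of the 3 fatty acid genes tested, Fasn and Scd2, fell. Acly, which makes cytosolic acetyl-CoA from citrate, averaged 33.9 ± 14.0 CPM with poly I:C and 43.1 ± 4.35 CPM in untreated cells (SD, n = 4 each) and was not called. Abcg1 had 42.3, 123, 76.1 and 87.6 CPM with poly I:C and 4.53, 19.1, 18.9 and 24.9 CPM in untreated cells, 4.71-fold higher (log2 fold change 2.24 ± 0.35 SE, adjusted p = 5.86e-09). Fasn had 32.9, 14.2, 7.61 and 25.5 CPM with poly I:C and 90.7, 107, 102 and 88.6 CPM in untreated cells, 5.02-fold lower (log2 fold change -2.33 ± 0.34 SE, adjusted p = 9.27e-10). Scd2 had 0, 9.46, 3.8 and 3.65 CPM with poly I:C and 45.3, 45.3, 40.2 and 30.5 CPM in untreated cells, which is 4 counts and 67 counts (log2 fold change -3.22 ± 0.60 SE, adjusted p = 7.72e-07). No poly I:C library of these 3 genes lay within the untreated range, and the calls were kept under every alternative that was run. All 6 cycling-cell markers had counts, and their summed level lay between 365 and 466 CPM with poly I:C and between 764 and 891 CPM in untreated cells. Macrophage and monocyte markers (7 of 8 in the table) summed to between 401 and 568 CPM with poly I:C, with Adgre1 and Mertk at 0, and to between 998 and 1349 CPM in untreated cells, with Mertk at 0. Of 6 cDC2 markers, 3 had counts with poly I:C (Sirpa, Mgl2 and Clec10a at 0), summing to between 4.70 and 22.8 CPM, and 4 in untreated cells (Sirpa and Clec10a at 0), summing to between 52.6 and 92.1 CPM. All 4 plasmacytoid dendritic cell markers had counts and summed to between 52.1 and 98.8 CPM with poly I:C and between 26.2 and 36 CPM in untreated cells. The cDC1 markers differed as given above. The part of these markers in the members' changes was not tested.

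**Figure D3:**
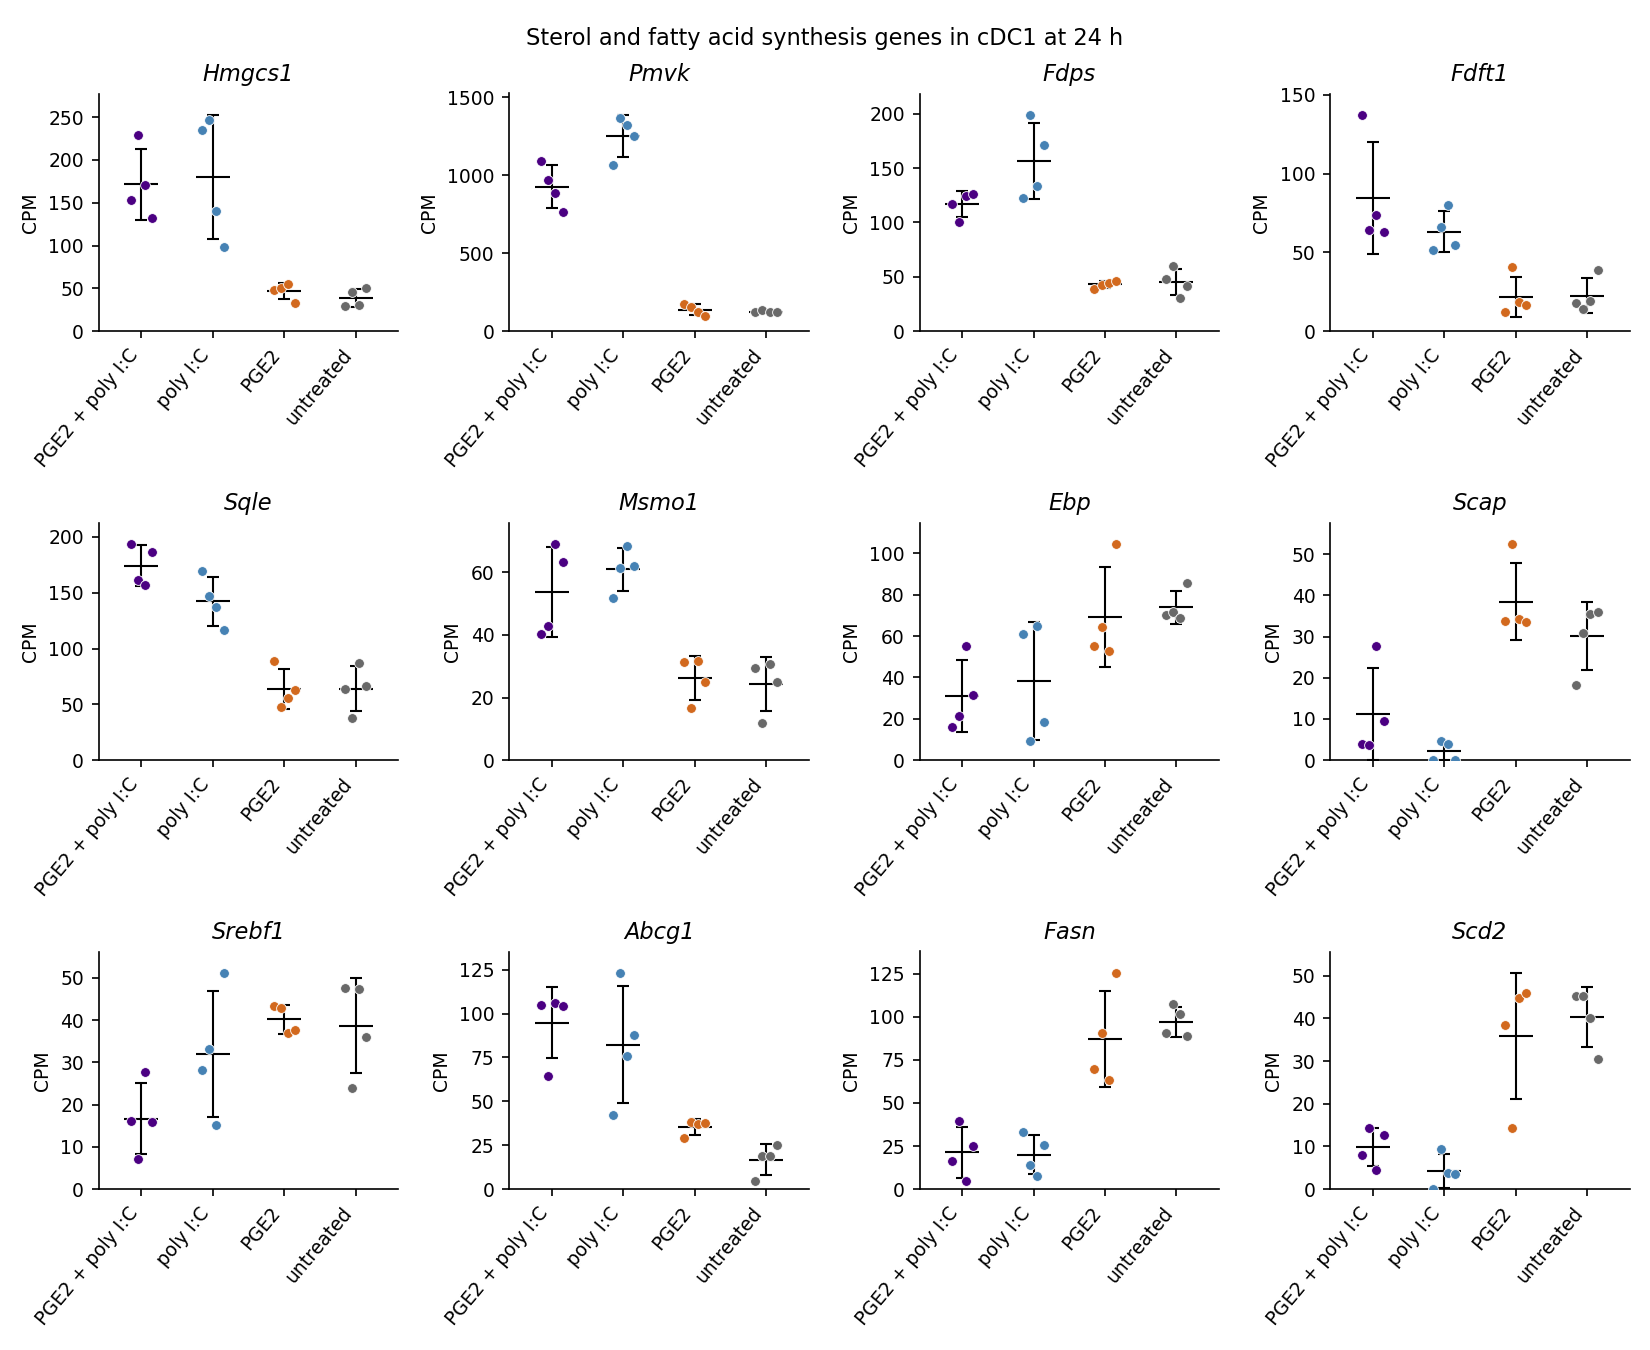
Level in CPM of 12 members in each library at 24 h; points are libraries, the long bar is the mean and the whiskers are 1 SD, cut at 0 (n = 4 per group). Pmvk lies between 764 and 1368 CPM in both groups with poly I:C, and Fasn between 4.6 and 39.4 CPM. With library totals alone as scaling, Fdft1, Sqle and Msmo1 are not called higher in poly I:C over untreated.

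In cells that had been in PGE2 for 24 h, poly I:C changed 13 of 16 members, 7 higher and 6 lower, where 64.8% of all genes were called, 30.8% higher and 34% lower. The members' median was 0.50, against -0.11 over all genes. These libraries are other ones than those of the comparison in cells without PGE2. The 7 genes that rose were 87.5% of the 8 that rose without PGE2, the exception being Sc5d. The 4 genes that fell without PGE2 all fell again and were 66.7% of the 6 that fell with it. Library totals alone moved the median of all genes to -0.88 and gave 5 members higher and 7 lower, with Msmo1 and Abcg1 no longer called and Srebf2 called lower. Macrophage and monocyte markers (7 of 8 in the table) summed to between 354 and 368 CPM with PGE2 and poly I:C, with Adgre1 and Mertk at 0, and between 1485 and 1772 CPM with PGE2 alone, with Mertk at 0. The 6 cDC2 markers summed to between 36.8 and 50.5 CPM with PGE2 and poly I:C, with Mgl2 at 0, and between 122 and 159 CPM with PGE2 alone, with Mgl2 and Clec10a at 0. Plasmacytoid (4 of 4 in the table, Ly6d at 0 with PGE2 and poly I:C), cycling-cell (6 of 6) and cDC1 markers (10 of 10) overlapped between these groups. The part of these markers in the members' changes was not tested.

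Pmvk had 1088, 969.7, 884 and 764 CPM with PGE2 and poly I:C and 176, 153, 124 and 100.3 CPM with PGE2 alone, 6.27-fold higher (log2 fold change 2.65 ± 0.13 SE, adjusted p = 3.49e-46). Hmgcs1 had 153, 229, 170.3 and 133 CPM with PGE2 and poly I:C and 48.1, 50.1, 55.3 and 33.4 CPM with PGE2 alone, 3.42-fold higher (adjusted p = 3.96e-11). Both genes had no overlap between the groups. Fdps averaged 117 ± 11.9 CPM with PGE2 and poly I:C and 43.0 ± 3.29 CPM with PGE2 alone (SD, n = 4 each; log2 fold change 1.39 ± 0.26 SE, adjusted p = 7.55e-07). Downstream, Fdft1 had 137, 64.4, 73.6 and 63.2 CPM with PGE2 and poly I:C and 12.0, 40.5, 18.4 and 16.7 CPM with PGE2 alone (log2 fold change 1.82 ± 0.34 SE, adjusted p = 1.03e-06). Ctsb, which overlaps it, was again higher (log2 fold change 0.57 ± 0.21 SE).

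Sqle, Msmo1 and Abcg1 rose as well. Sqle had 194, 161, 156 and 186 CPM with PGE2 and poly I:C and 89.0, 47.7, 55.3 and 62.7 CPM with PGE2 alone (log2 fold change 1.39 ± 0.22 SE, adjusted p = 1.06e-08). Msmo1 had 40.3, 42.9, 69.0 and 63.2 CPM with PGE2 and poly I:C and 31.3, 16.7, 31.6 and 25.1 CPM with PGE2 alone, a rise of 0.97 ± 0.35 SE on the log2 scale (adjusted p = 0.0113) whose call was lost without PGE2 B (0.0576). Neither gene overlapped between the groups. Abcg1 had 105, 64.4, 106 and 104 CPM with PGE2 and poly I:C and 28.9, 38.1, 36.9 and 37.6 CPM with PGE2 alone, also apart (log2 fold change 1.36 ± 0.30 SE, adjusted p = 3.29e-05).

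Srebf1 and Acly joined the genes that fell. Srebf1 had 16.1, 7.16, 27.6 and 15.8 CPM with PGE2 and poly I:C and 43.3, 42.9, 36.9 and 37.6 CPM with PGE2 alone, without overlap (log2 fold change -1.36 ± 0.43 SE, adjusted p = 0.00332). Its 3' end overlaps Rai1 on the other strand, and reads of the pair cannot be told apart. Rai1 averaged 11.6 CPM with PGE2 and poly I:C (13 counts) and 18.8 CPM with PGE2 alone (26 counts), a difference that was not tested. Acly had 44.3, 7.16, 23.0 and 25.3 CPM with PGE2 and poly I:C and 55.3, 85.8, 39.5 and 37.6 CPM with PGE2 alone (log2 fold change -1.23 ± 0.37 SE, adjusted p = 0.00193). The groups overlapped, with library A of PGE2 and poly I:C above PGE2 C and D. Fasn had 16.1, 39.4, 4.6 and 25.3 CPM with PGE2 and poly I:C and 69.7, 90.6, 63.2 and 125 CPM with PGE2 alone, 3.85-fold lower (log2 fold change -1.95 ± 0.34 SE, adjusted p = 1.44e-07). All 3 fatty acid genes tested therefore fell. Scd2 had 8.06, 14.3, 4.6 and 12.6 CPM with PGE2 and poly I:C and 38.5, 14.3, 44.8 and 46.0 CPM with PGE2 alone (log2 fold change -1.77 ± 0.50 SE, adjusted p = 0.00111). PGE2 B lay within the range of the poly I:C libraries. Scap had 4.03, 3.58, 27.6 and 9.48 CPM with PGE2 and poly I:C and 33.7, 52.4, 34.2 and 33.4 CPM with PGE2 alone (log2 fold change -1.91 ± 0.50 SE, adjusted p = 0.000417), without overlap. Ebp had 16.1, 21.5, 55.2 and 31.6 CPM with PGE2 and poly I:C and 55.3, 64.4, 52.7 and 104 CPM with PGE2 alone (log2 fold change -1.18 ± 0.34 SE, adjusted p = 0.00152). Library C with poly I:C lay within the range of PGE2 alone. Srebf2 had 117, 64.4, 73.6 and 167 CPM with PGE2 and poly I:C and 125, 124, 111 and 125 CPM with PGE2 alone, overlapping, and was not called.

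**Figure D4:**
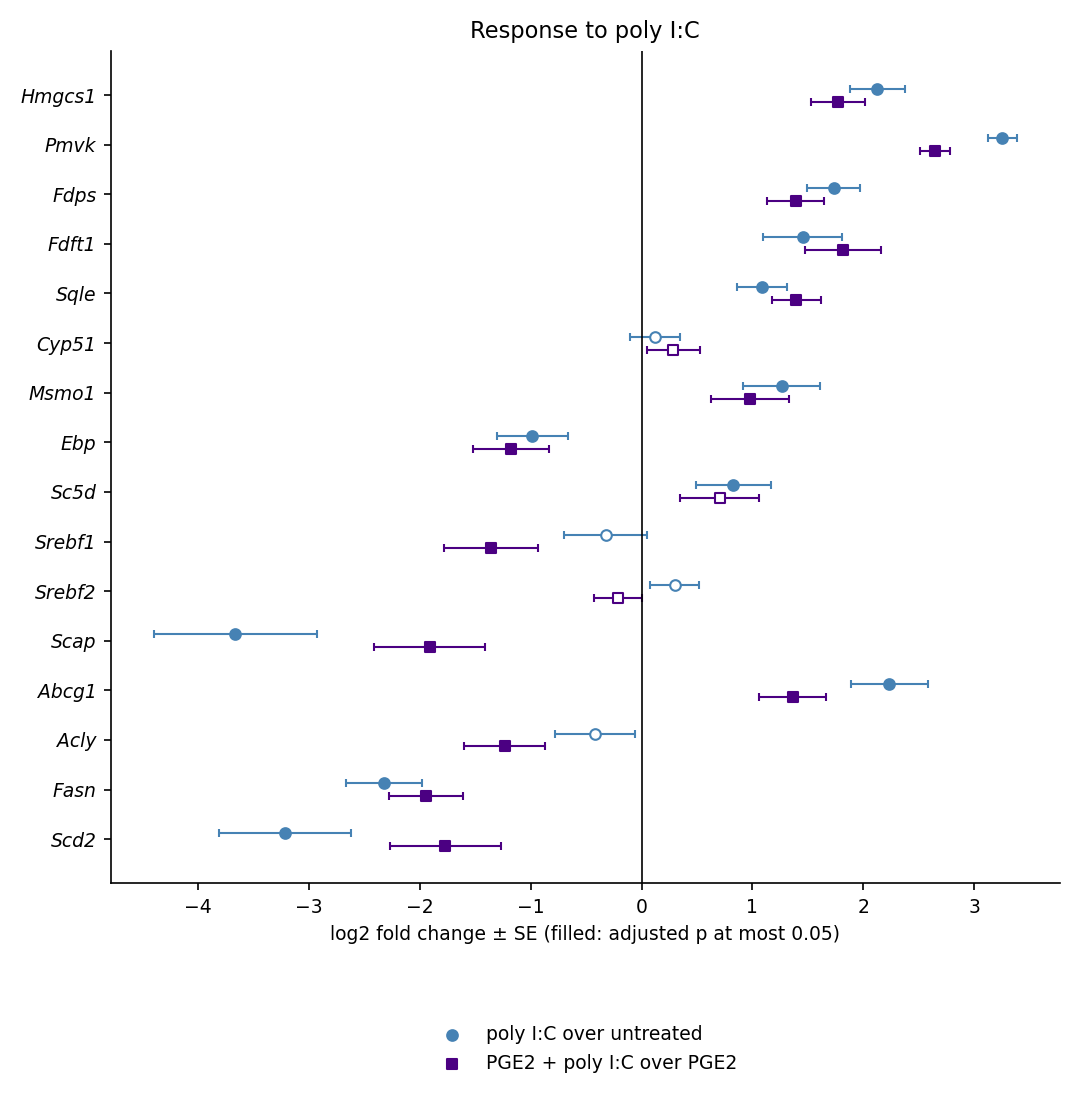
Log2 fold change with its SE for the 16 members tested at 24 h, for poly I:C over untreated and for PGE2 with poly I:C over PGE2; filled symbols have an adjusted p of at most 0.05. Pmvk lies at 3.25 and 2.65 and Fasn at -2.33 and -1.95 in the 2 comparisons. Under library totals alone, Cyp51 and Srebf2 are called lower in poly I:C over untreated.

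PGE2 before poly I:C changed 1 member relative to poly I:C alone, where 10.7% of all genes were called, 5.03% higher and 5.65% lower. Pmvk had 1088, 969.7, 884 and 764 CPM with PGE2 and poly I:C and 1063, 1368, 1324 and 1248 CPM with poly I:C alone. Library A with PGE2 and poly I:C lay just above the lowest poly I:C library, and the other 3 lay below all of them. Pmvk was 1.35-fold lower (log2 fold change -0.43 ± 0.11 SE, adjusted p = 0.00158), and the call was kept under all 13 alternatives. The members' median was -0.10, against -0.01 over all genes. The interaction, which is the PGE2 effect with poly I:C minus the effect without it, called 0 of 16 members by edgeR and 0 by DESeq2, with 1 member at an unadjusted p under 0.05, where 3.28% of all genes were called. That member was Pmvk, at -0.61 ± 0.20 SE on the log2 scale (adjusted p = 0.0591).

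Members under the filter are given by their counts. Elovl6, which lengthens palmitate, had 2 counts with PGE2 and 19 in untreated cells at 4 h, and 1 count with poly I:C and 17 in untreated cells at 24 h. The ratios were 8.71-fold lower (exact 95% interval 2.10 to 77.1) and 9.93-fold lower (1.56 to 415), for counting error only. Across libraries these genes were tested where no filter on low counts was set. Dhcr7, the last reductase of cholesterol synthesis, had 1 count with PGE2 and 9 in untreated cells at 4 h, and 1 count with poly I:C and 16 in untreated cells at 24 h. The ratios were 8.25-fold lower (1.14 to 362) and 9.34-fold lower (1.45 to 392). With the combined EP2 and EP4 antagonists, Dhcr7 had 15 counts and Elovl6 18, against 1 count of Dhcr7 and 2 of Elovl6 with PGE2 alone, ratios of 9.09-fold (1.40 to 383) and 5.46-fold (1.31 to 48.5) higher. Elovl6 had 10, 11, 9 and 2 counts with the EP1, EP2, EP3 and EP4 antagonist, against 2 with PGE2 alone. The ratios were 4.87 (1.04 to 45.7), 4.07 (0.889 to 37.8), 3.37 (0.698 to 32.1) and 1.16 (0.0842 to 16.02). Dhcr7 had 6, 8, 5 and 5 counts with the same antagonists, against 1 with PGE2 alone. Its ratios were 5.85, 5.93, 3.75 and 5.81, and each interval included 1. Ratios were worked out only where a group held 1 to 3 counts and neither group held 0. Apart from these single antagonists, they are given here only where the interval excluded 1. The intervals were not adjusted for the number of ratios worked out. Dhcr7 had 1 count with PGE2 and poly I:C and 11 with PGE2 alone, 8.03-fold lower (1.17 to 345). Mvk, the mevalonate kinase, had 3 counts in control CM and 19 in Ptgs1/Ptgs2-/- CM, 5.76-fold lower (1.69 to 30.4). The remaining 10 members under the filter had between 1 and 284 counts in all 52 libraries. With no filter, poly I:C over untreated called 8 members higher and 7 lower, with Acaca, Dhcr7, Elovl6 and Hsd17b7 added and Sc5d lost, and PGE2 with poly I:C over PGE2 called 9 higher and 8 lower, with Acaca, Elovl6, Idi1 and Insig1 added. None of the members under the filter was added in a comparison at 4 h.

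A further 42 genes of the pathway, taken from textbook knowledge, gave 25 tested at 4 h and 25 at 24 h. With PGE2 at 4 h, 3 of 25 fell and 0 rose, where 3.35% of all genes were called lower and 5.21% higher. Among those that fell were Lipa, the lysosomal acid lipase (log2 fold change -1.26 ± 0.31 SE, adjusted p = 0.00142), and Tecr, of fatty acid elongation (-0.92 ± 0.24 SE, adjusted p = 0.00403). In control CM against Ptgs1/Ptgs2-/- CM, 4 of 25 fell and 0 rose, where 1.51% of all genes were called lower and 2.43% higher. Lipa fell by 1.40 ± 0.36 SE, Tecr by 0.86 ± 0.24 SE and Hsd17b12, also of fatty acid elongation, by 0.82 ± 0.26 SE. In control CM against untreated cells, 3 of 25 were called, all lower, where 2.75% of all genes were called lower and 4.81% higher. Lipa (-2.23 ± 0.34 SE) and Tecr (-1.04 ± 0.24 SE) were among those called. With the combined EP2 and EP4 antagonists over PGE2 alone, 2 of 25 rose and 0 fell. Of all genes, 4.21% were called higher and 5.32% lower in that comparison. Acat1 was among those that rose, by 0.77 ± 0.24 SE. With poly I:C in otherwise untreated cells 7 of 25 rose and 10 fell, where 31.3% of all genes were called higher and 33.7% lower. Mylip, a ubiquitin ligase gene, rose by 3.31 ± 0.44 SE, the lysosomal sterol carrier Npc2 by 3.55 ± 0.12 SE and the citrate carrier Slc25a1 by 1.61 ± 0.18 SE. Among those that fell were the sterol reductase gene Lbr (-2.97 ± 0.57 SE) and the fatty acid desaturase gene Fads1 (-2.43 ± 0.42 SE). In cells with PGE2, poly I:C raised 6 of 25 and lowered 10, where 30.8% of all genes were called higher and 34% lower. Mylip was then at 2.00 ± 0.47 SE, Npc2 at 3.11 ± 0.12 SE and Lbr at -3.19 ± 0.56 SE. The medians of these 25 genes were 0.02 for PGE2 at 4 h and -0.34 for poly I:C without PGE2, against medians over all genes of -0.01 for PGE2 at 4 h and -0.10 for poly I:C.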

How the data were processed

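Per the labels' protocols, polyadenylated RNA was sequenced from its 3' end on a NextSeq 500, and the authors deposited whole-number UMI counts per gene made with the Drop-seq pipeline on GRCm38 with Ensembl release 75. The submitters' processing notes name DESeq2 1.14.1 and GRCm38.p6. Neither the aligner nor the strand setting is given in the sources used here, and reads of overlapping genes cannot be told apart. Of 23136 lines of the table, 1 with a text entry was left out, and 20 lines whose symbols had become dates (0.105% of counts) are named in no result.

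The quasi-likelihood test (robust) came from edgeR 4.0.16 in R 4.3.3, after filterByExpr by group with a minimum count of 10 and TMM scaling. Its p-values were adjusted over all genes tested by Benjamini-Hochberg, and called at an adjusted p of at most 0.05. The fits held the 36 libraries at 4 h (5754 genes), the 16 at 24 h (5273 genes) and the 16 untreated and PGE2 libraries of both times (5403 genes). CPM are counts per 1e+06 of the library total times its TMM factor within a time, and SE is that of the log2 fold change. The test was tried on simulated counts. Alternatives were DESeq2 1.42.0, library totals alone, no filter, only the groups compared, the replicate letter as a block, no library under 120000 counts, and each library left out in turn. Replicate pairs differed by more than counting noise, the 78 pairs having a chi-square per degree of freedom of 1.38 to 2.70.

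The members and lists were chosen with earlier results of these data known. Every called member is named. Values of each library are given for members called in at least 2 comparisons and for the 2 with the smallest adjusted p of a comparison. They are also given for Srebf1, Srebf2, Insig1, Fdps and Sqle where a result turns on them. In some comparisons, called ones included, such a member is given by mean and SD or by its fold change only. Other genes of the pathway are named where called, except for a few that are not reported here. Which fold changes and intervals to print for members that were not called was chosen after their values were seen.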

Additional observations from a re-analysis of the deposited data

Results flagged for a closer look

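The PGE2 effect was called different between 24 h and 4 h for Pmvk (difference 0.86 on the log2 scale) and Fdps (1.55), by the edgeR test of the difference. Pmvk lost that call under 16 of 21 alternatives and Fdps under 6 of 21, and DESeq2 called neither.

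Over 14 members (those given library by library, Acly left out), 18 of 182 groups of 4 held a library far from the other 3. Chance gives about 1 in 20 for normally distributed values. The rate for low counts at unequal depth was not worked out. At 4 h, the highest library stood apart for Pmvk with the EP2 antagonist (185 CPM, C), Fdps with the combined EP2 and EP4 antagonists (178 CPM, B), Fdft1 with PGE2 (41.1 CPM, A), Sqle with PGE2 (84.6 CPM, D), Abcg1 with the EP1 antagonist (69.9 CPM, B), and Scap with the EP1 antagonist (64.6 CPM, A) and with the EP3 antagonist (84.9 CPM, A). In untreated cells at 4 h it stood apart for Srebf1 (81.8 CPM, A), Fasn (98.1 CPM, A) and Scap (81.2 CPM, C). The lowest library stood apart at 4 h for Srebf1 with PGE2 (20.5 CPM, B) and Fasn with the EP1 antagonist (24.2 CPM, A).

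At 24 h the highest library stood apart for Fdft1 with PGE2 and poly I:C (137 CPM, A), Scap with PGE2 (52.4 CPM, B) and Ebp in untreated cells (85.9 CPM, D). The lowest stood apart for Abcg1 with PGE2 and poly I:C (64.4 CPM, B) and with PGE2 (28.9 CPM, A), and for Srebf2 with PGE2 (111 CPM, C). Of these libraries, untreated A at 4 h and EP1 antagonist A were among the 3 shallowest.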

How the results depend on the processing

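No called member reversed its direction under any alternative. Of 38 called values, 33 were kept with DESeq2, 31 with library totals alone, 31 with no filter on low counts and 38 with the replicate block, and 34 of 34 with only the groups compared. Without a filter, 1 member was called for PGE2 over untreated at 4 h, for control CM over Ptgs1/Ptgs2-/- CM, for control CM over untreated and for the difference of the PGE2 effect between times, where the 1 was Elovl6 and both Fdps (adjusted p = 0.0817) and Pmvk (0.177) lost the call. DESeq2 called 1 for control CM over Ptgs1/Ptgs2-/- CM and 0 for that difference. The interaction called 1 with the replicate block. Untreated cells at 24 h over 4 h called 1 with library totals alone, 1 with only the groups compared and 1 without libraries under 120000 counts, where the difference of the PGE2 effect also called 1.

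Leaving out 1 library at a time gave 1 to 2 calls for PGE2 over untreated at 4 h, 1 to 2 for control CM over Ptgs1/Ptgs2-/- CM and over untreated, 0 to 1 for the EP4 antagonist over PGE2 (1 without PGE2 C), for PGE2 over untreated at 24 h (1 without untreated D), for the interaction (1 without PGE2 C or D, poly I:C A, or PGE2 with poly I:C A) and for untreated 24 h over 4 h (1 without untreated B at 24 h or A at 4 h), and 0 to 2 for the difference of the PGE2 effect. Leaving out 1 library gave 14 to 16 calls for PGE2 with poly I:C over PGE2, where the filter passes more members once a library is left out, and 11 to 13 for poly I:C over untreated. For PGE2 with poly I:C over PGE2, Acaca was added, lower, in each of these fits. Insig1 was added, higher, in all but those without PGE2 with poly I:C B or D. The same replicate letter did not pair the samples: in 0 of 15 comparisons did every pair correlate above 0.1. Libraries under 120000 counts occur only at 4 h, and the interaction and the difference between times use every group of their fits, so those settings give no value there. Of the 31 members, 13 passed no filter and were not tested in the main fits. Whether depth or low expression kept their counts down was not tested.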
